A study of Mus musculus with 4 samples.

Results

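The genes described here encode 8 basic leucine zipper (bZIP) transcription factors: Maf, the small MAF proteins Maff, Mafg and Mafk, the repressors Bach1 and Bach2, Nfil3, and Nfe2l2, which encodes NRF2. They were chosen by name, with the differences between IL-10+ and IL-10- Tregs on these arrays already known, so the values of this contrast are given as a description. No p-value is printed for these 8 genes, and their calls at a threshold of adjusted p are labels within that description, not tests. Every probe set that the platform annotation assigns to 1 of these genes alone was taken, which gave 18 of the 45037 probe sets tested and 8 of 18193 genes. Maf had 6 probe sets, Bach2 had 3, Bach1, Mafg and Nfe2l2 had 2 each, and Maff, Mafk and Nfil3 had 1 each.

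CD4+CD25+ T-cells that secreted IL-10 (IL-10+, 2 arrays) were compared with those that did not (IL-10-, 2 arrays). All 4 samples came from lymph nodes of C57Bl/6 mice aged 6 to 12 weeks that had received the CD28 superagonist D665 (CD28SA), an antibody that amplifies weak T-cell receptor signals, and were taken after 3 days. All 4 were also kept overnight in IL-2 at 200 U/ml, with antibodies to CD28 at 5 µg/ml and to CD3 at 2 µg/ml, before they were stained for secreted IL-10 and sorted, so unstimulated cells were not part of the comparison. Each sample was read on 1 Affymetrix mouse genome array, on which a probe set is a group of short probes for 1 stretch of a transcript, and the number of mice behind a sample is not given in the sources used here. The p-values therefore measure the spread between these arrays, which may be technical. In such sorted samples, fewer cells that carry a transcript and less of it per cell cannot be told apart.

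Il10, the gene of the sorted cytokine, was at 12.02 and 12.00 in IL-10+ and at 10.41 and 10.37 in IL-10- samples (log2). The T-cell markers Cd3d, Cd3e, Cd3g and Cd4 were at 10.06 or more on every array. Of 6 T-cell markers measured, 3 were called higher in IL-10+ cells and 0 lower, with Cd4 (0.51) and Cd3g (0.41) among the 3. The Cd4 difference was that of the brighter of 2 probe sets, and with both averaged it was 1.79. Foxp3, the defining factor of Tregs, was at 10.79 or more on every array and was lower in IL-10+ cells by 0.72 (limma, adjusted p = 0.000174). Of 5 Treg markers, 1 was called higher (Ctla4, by 0.87) and 2 lower, Foxp3 included, and 2 were not called. Over all genes by their brightest probe set, 8.37% were called higher and 22.9% lower. Several B-lineage transcripts were higher in the IL-10- samples, as given beside Bach2. Array medians ran from 6.31 to 6.41. All levels are on the log2 scale, and a difference above 0 means a higher level in IL-10+ cells. The base of the deposited values is not stated, and figure legends of the study give fold changes as natural logs (ln). Levels and folds here rest on reading the values as log2. Read as natural logs every difference would be larger, that of Maf 1437473_at 3.34 in place of 2.32 on the log2 scale. "Called" means an adjusted p under 0.05 from limma over all 45037 probe sets, of which 13.6% were called higher and 16.2% lower in IL-10+ cells.

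A bZIP factor binds DNA as a dimer, through a basic region next to the zipper that holds both partners together. Small MAF proteins have no activation domain and take their effect from the partner: with NRF2 they activate antioxidant and detoxification genes, and with BACH1 or BACH2 they repress genes at the same kind of site. KEAP1 keeps NRF2 low by marking it for degradation, and heme releases BACH1 from DNA. c-MAF, the product of Maf, is a large MAF protein with an activation domain that drives Il4 and Il10 in T-cells. BACH2 restrains effector differentiation and is needed for Treg homeostasis. NFIL3 (E4BP4) competes with DBP, TEF and HLF, the PAR bZIP activators of the circadian clock, and takes part in cytokine control in T-cells.

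Promoter sequence in the RefSeq table (GRCm38.p6, 250 bases before to 50 after a start) was held for 7 of the 8 genes, with 9 promoters in all. For Maf none was held. The promoters shown are those of both BACH genes, of which Bach2 was lower by 2 probe sets and Bach1 higher by its dimmer one, and of Nfe2l2, whose product acts at one of the sites searched. Capitals mark matches to TGAGTCA, the core shared by AP-1 and MAF/BACH sites, TGACNNNGC, the core of the antioxidant response element, TGCTGA, a short MAF recognition sequence, or TTACGTAA, the site of NFIL3 and the PAR factors, on either strand. The first 2 of these can overlap on the same letters. Bach2 lies on the plus strand at chr4:32417185-32417484, Bach1 on the plus strand at chr16:87698704-87699003, and Nfe2l2 on the minus strand at chr2:75704614-75704913.
Bach2: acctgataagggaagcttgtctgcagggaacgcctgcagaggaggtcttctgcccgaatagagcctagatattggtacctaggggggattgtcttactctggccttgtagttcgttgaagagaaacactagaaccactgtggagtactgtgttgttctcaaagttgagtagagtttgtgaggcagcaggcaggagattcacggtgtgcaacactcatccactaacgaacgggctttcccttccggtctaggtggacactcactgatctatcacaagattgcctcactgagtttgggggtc
Bach1: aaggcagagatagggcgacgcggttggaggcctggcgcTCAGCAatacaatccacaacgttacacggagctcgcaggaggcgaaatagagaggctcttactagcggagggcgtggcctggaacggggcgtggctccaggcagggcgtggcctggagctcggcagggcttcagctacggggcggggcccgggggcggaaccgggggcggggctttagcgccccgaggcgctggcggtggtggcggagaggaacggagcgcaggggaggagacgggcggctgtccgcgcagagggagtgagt
Nfe2l2: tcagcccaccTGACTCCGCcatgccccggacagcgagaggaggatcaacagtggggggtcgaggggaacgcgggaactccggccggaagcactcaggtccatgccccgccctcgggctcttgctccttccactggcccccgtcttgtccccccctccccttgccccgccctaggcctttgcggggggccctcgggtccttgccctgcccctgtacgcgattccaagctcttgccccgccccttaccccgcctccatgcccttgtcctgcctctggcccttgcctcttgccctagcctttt

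None of the 4 motifs occurred in the Bach2 window, in that of Nfil3 or in 2 of the 3 windows of Maff. Bach1 held TGCTGA on the minus strand, beginning 212 bases before the start, and Nfe2l2 held TGACNNNGC beginning 240 bases before it. The small MAF genes each had a promoter with TGACNNNGC, beginning 112 bases before the start in Maff, 222 in Mafg and 13 in Mafk, and Mafk also held TGCTGA. Of all 32851 promoters in the table, 5.2% held TGAGTCA, 12.4% TGACNNNGC, 19.5% TGCTGA and 0.119% TTACGTAA. A match describes letters only and was not tested as a binding site.

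Among the 18 probe sets, 4 were called higher in IL-10+ cells and 5 lower, against 13.6% and 16.2% of all probe sets, and 9 were not called. The members were chosen on this contrast, so nothing is read from these shares. The differences ran from -2.18 for a Bach2 probe set to 2.32 for a Maf probe set, with a median of -0.10, against 0.01 over all probe sets. The smallest difference of a called probe set was 0.37 in size, and the largest of one not called was 0.22. The groups did not overlap for 13 probe sets, with the IL-10+ arrays above in 5 and below in 8, while 32.5% and 30.5% of all probe sets lay apart in the same directions. By the threshold of the study's methods, an at least 2-fold change with an adjusted p under 0.001, 2 probe sets of Maf were higher and 2 of Bach2 lower (1.72% and 0.575% of all probe sets).

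**Figure D1:**
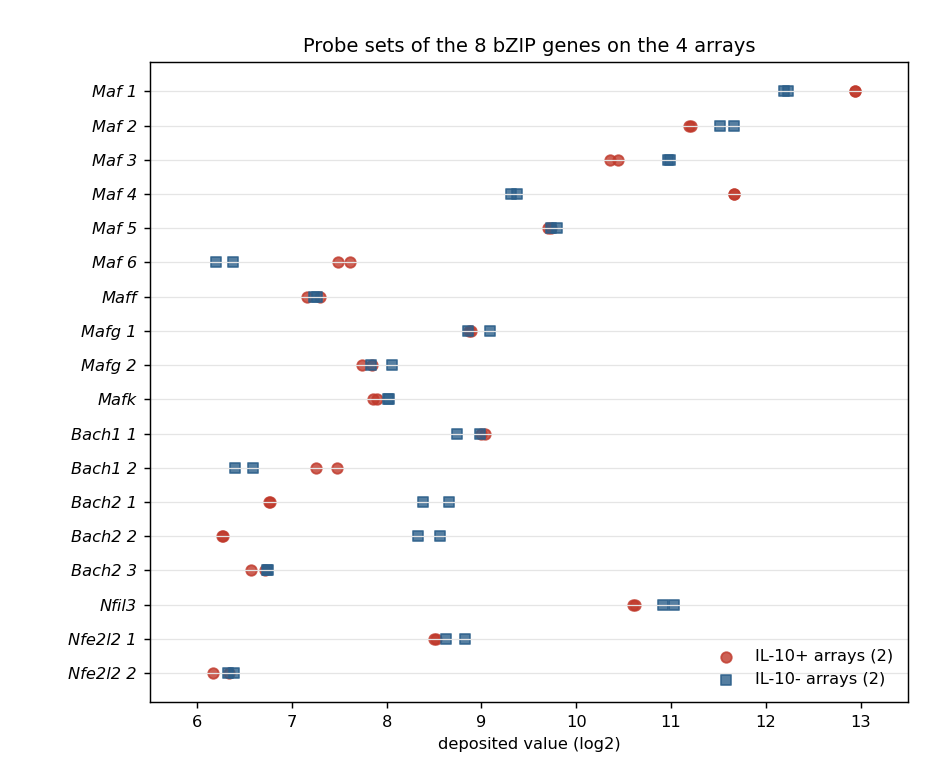
Deposited values (log2, horizontal axis) of the 18 probe sets of the 8 bZIP genes on the 2 IL-10+ arrays (circles) and the 2 IL-10- arrays (squares), numbered within a gene from bright to dim. The circles lie far left of the squares for the 2 brighter Bach2 probe sets and far right of them for the fourth Maf probe set, and the symbols nearly meet for Maff.

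Bach2 had the largest differences on the lower side. Its brightest probe set (1437667_a_at) was at 6.76 and 6.77 on the IL-10+ arrays and at 8.66 and 8.38 on the IL-10- arrays, a difference of -1.76 (standard error 0.10), which is 3.38-fold. The next (1436515_at) was at 6.26 and 6.27 against 8.33 and 8.56, a difference of -2.18 (standard error 0.08) or 4.54-fold. In both, the IL-10+ arrays were close to the median of all probe sets on an array, where variance stabilization compresses differences, and the IL-10- arrays were about 2 units above it. The dimmest Bach2 probe set (1445460_at) was at 6.72 and 6.57 against 6.75 and 6.74, near the array median in every sample, and was not called (-0.10, standard error 0.07). Over the 3 probe sets averaged, Bach2 was lower by 1.35.

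B cells also carry Bach2, and their markers were lower in IL-10+ samples too. Of 8 B cell markers measured, 6 were called lower and 0 higher, against 22.9% and 8.37% of all genes by their brightest probe set. Their mean level was 7.04 and 7.01 in IL-10+ against 7.76 and 7.66 in IL-10- samples. Ms4a1, which encodes CD20, was at 5.82 and 5.67 against 6.97 and 6.95, and Cd79b, a chain of the B-cell receptor, at 7.03 and 7.17 against 8.20 and 8.11. Pax5, the factor that defines B cells, was at 6.12 to 6.21 on all 4 arrays, below the array medians, and was not called. Of 6 plasma cell markers, 4 were lower and 0 higher, and their mean level was 7.67 and 7.69 against 9.55 and 9.54. Igha, an antibody heavy chain gene, was at 7.18 and 7.24 against 12.58 and 12.74 (-5.45). Jchain (-2.75) and Mzb1 (-2.75) followed, while Xbp1 and Tnfrsf17 were not called. The B cell marker Ighm was at 12.36 and 12.30 against 12.97 and 13.14, thus high in both groups. Of 7 dendritic cell markers, 2 were lower, H2-Aa (-3.71) and Cd74 (-2.59), and 1 was higher. The part of B-lineage RNA in the Bach2 difference was not tested. For the genes whose centred values over the 4 arrays were closest to the brightest Bach2 probe set, the Euclidean distances were 0.208 for Cd83, a surface protein of activated lymphocytes and dendritic cells, 0.224 for Selenbp1 and 0.26 for Igkv6-14, an antibody light chain gene. With 2 arrays against 2, such a distance depends mostly on the group difference, which was -1.86, -1.78 and -1.80 for these genes. Nothing on shared regulation is read from it, here or for Maf and Nfil3 below.

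Bach1, the heme-regulated relative of Bach2, did not share its direction. Its dimmer probe set (1449311_at) was at 7.25 and 7.48 on the IL-10+ and at 6.40 and 6.59 on the IL-10- arrays, a difference of 0.87 (standard error 0.10) that was called higher. The brighter one (1440831_at) was at 9.04 and 8.99 against 8.74 and 8.98, so the IL-10+ arrays were only just above, and the difference of 0.15 (standard error 0.09) was not called. It was 0.27 and called without IL-10- replicate 4, and 0.03 without IL-10- replicate 3. With both averaged, Bach1 differed by 0.51 and was called higher. Control transcripts spiked into the RNA differed by a median of 1.11 at their 5' ends in the same direction, and their bearing on Bach1 was not tested.

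Maf was read by probe sets that differed in opposite directions. The brightest (1456060_at) was at 12.94 and 12.94 on the IL-10+ and at 12.19 and 12.23 on the IL-10- arrays, a difference of 0.73 (standard error 0.06) or 1.66-fold. The largest difference was in 1437473_at, at 11.66 and 11.66 against 9.38 and 9.31, which is 2.32 (standard error 0.06) or 4.99-fold. A dim probe set, 1447945_at, was at 7.49 and 7.61 against 6.38 and 6.20 (1.27, standard error 0.08). In these 3 the IL-10+ arrays lay above both IL-10- arrays.

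Another 2 of the Maf probe sets were lower in IL-10+ cells. 1435828_at was at 10.36 and 10.44 against 10.99 and 10.97, a difference of -0.58 (standard error 0.06). 1447849_s_at, whose suffix marks probes that can match several transcripts, was at 11.21 and 11.19 against 11.52 and 11.67, a difference of -0.40 (standard error 0.07). The last, 1444073_at, was at 9.70 and 9.73 against 9.73 and 9.80 and was not called (-0.05, standard error 0.06). The level of Maf was thus far above the array median in both groups by 5 of its 6 probe sets, and its direction depended on the probe set. Averaged over the 6, Maf was higher by 0.55 (standard error 0.05).

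The differences of Maf probe sets spanned 2.90, and among the 244 genes with 6 probe sets Maf and 1 other reached that span. Called probe sets in both directions were found for 79 of these 244 genes (32.4%) and for 1078 of the 9010 genes with more than 1 probe set (12.0%). The annotation table gave no accession for the 3 Maf probe sets that were higher and gave one for the other 3. Among all probe sets that name 1 gene, 16.7% of the 2812 without an accession were called higher and 21.8% lower, against 13.7% and 18.1% of the 32133 with one, so calls in both directions were more frequent without an accession. The place of a probe set within the Maf transcript was not given by the tables used here. For 4 spiked-in control transcripts, the median difference was 1.11 at the 5' end and 0.09 at the 3' end, both higher in IL-10+ samples, and the part of this in the Maf differences was not tested.

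**Figure D2:**
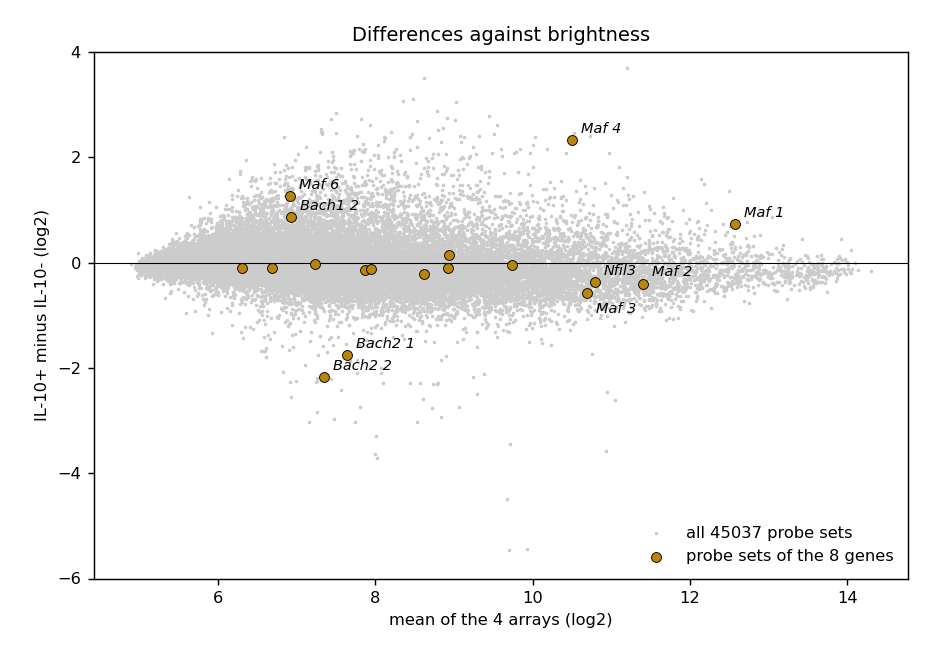
Difference between IL-10+ and IL-10- arrays (log2, vertical axis) against the mean of the 4 arrays (log2, horizontal axis) for all 45037 probe sets (grey) and the 18 of the bZIP genes (gold, those over 0.3 in size labelled). Maf probe sets lie on both sides of the zero line, from -0.58 to 2.32, and 2 of the 3 of Bach2 lie near the lower edge of the grey cloud.

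Macrophages also express Maf. Of 9 myeloid markers, 3 were called higher in IL-10+ samples and 0 lower, against 8.37% and 22.9% of all genes, and their mean level was 6.72 and 6.73 in IL-10+ against 6.59 and 6.56 in IL-10- samples. The 3 were Cd68, a lysosomal protein that was at 10.08 and 10.03 against 9.18 and 9.15, Cd14 at 7.16 and 7.25 against 6.72 and 6.70, and Csf1r at 7.25 and 7.28 against 6.93 and 7.01, which was not called by the mean over its probe sets. The defining markers Lyz2, Adgre1 and Itgam were between 5.60 and 6.22 on all 4 arrays, below the array medians, and were not called. The genes closest to the brightest Maf probe set over the 4 arrays were Gm20199 (Euclidean distance 0.0353), Adam8, a surface metalloprotease (0.0389), and Bclaf1, a nuclear RNA-processing protein (0.046).

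Nfil3 had a single probe set, at 10.62 and 10.60 on the IL-10+ and at 10.92 and 11.03 on the IL-10- arrays. It was called lower, by 0.37 (standard error 0.07) or 1.29-fold, and the groups lay apart. Probe sets this bright were shifted as a whole, since the 5601 with a mean of 9 or more had a median difference of -0.17, and after quantile normalization Nfil3 differed by -0.25 and was still called. Its closest genes over the 4 arrays were Cox7a2, a subunit of the respiratory chain (Euclidean distance 0.00719), Vamp3, a protein of vesicle fusion (0.00999), and C1qtnf12 (0.0139).

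The small MAF genes and Nfe2l2 were not called by any of their 6 probe sets. Maff was at 7.16 and 7.30 on the IL-10+ and at 7.23 and 7.26 on the IL-10- arrays, so the IL-10- values lay between the IL-10+ ones. Mafk was at 7.86 and 7.90 against 8.02 and 8.01 (-0.13, standard error 0.06), with the groups apart by a small margin. For Mafg the brighter probe set was at 8.87 and 8.89 against 8.86 and 9.09 and the dimmer one at 7.84 and 7.74 against 8.06 and 7.83, and the groups overlapped in both. These differences of -0.10 (standard error 0.09) and -0.15 (standard error 0.09) were called lower without IL-10- replicate 3 (-0.21) for the brighter and without IL-10- replicate 4 (-0.27) for the dimmer. Without the other IL-10- array they were 0.02 and -0.04. Mafk was called after median centring (-0.21).

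Nfe2l2 was at 8.52 and 8.50 against 8.63 and 8.83 by its brighter probe set, with the IL-10+ arrays below. The difference of -0.22 (standard error 0.08) was the largest of a probe set not called, and it was called after median centring (-0.30) and without IL-10- replicate 3 (-0.32), while it was -0.12 without IL-10- replicate 4. The dimmer probe set of Nfe2l2 was at 6.17 and 6.34 against 6.33 and 6.39, within the range of the array medians and just below it (-0.11, standard error 0.08). For none of these genes does a missed call show that the groups were equal.

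**Figure D3:**
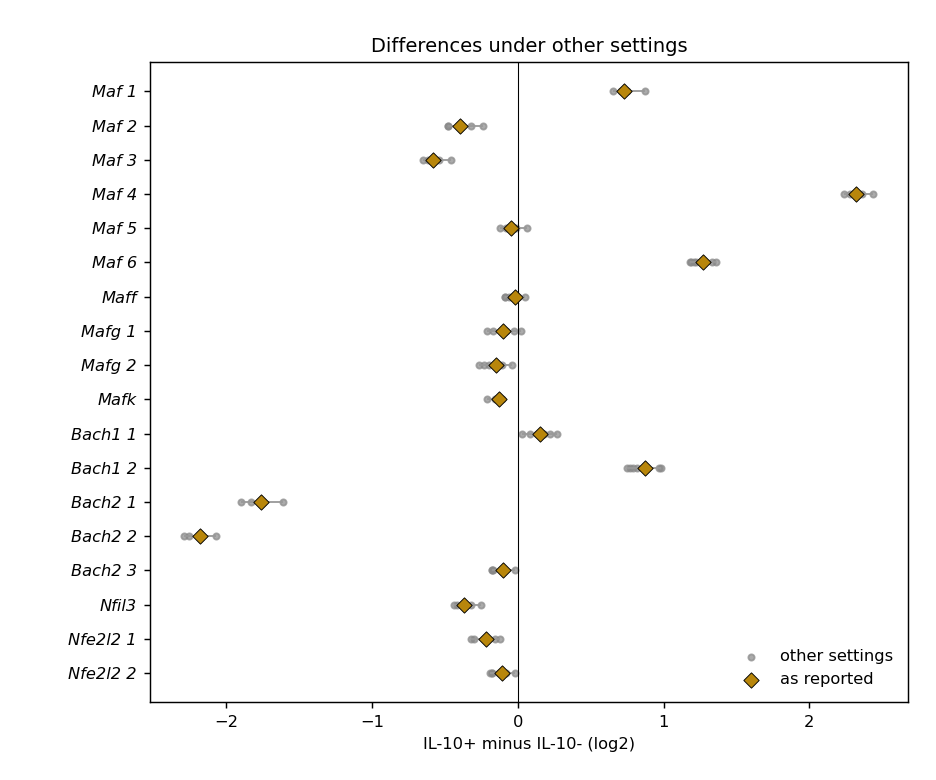
Differences (log2, horizontal axis) of the 18 probe sets as reported (diamonds) and under the other normalizations, filters and priors and without each array in turn (dots). The spread is smaller than the distance from the zero line for each of the 9 called probe sets, and dots cross that line for the fifth Maf probe set, Maff and the brighter Mafg probe set.

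The other genes of these pathways were taken from 8 lists and read by the brightest probe set of each gene, for which 8.37% of all 18193 genes were called higher and 22.9% lower. Among the further partners of the family measured, Nrl (0.18), Nfe2 (-0.16), Nfe2l1 (0.07) and Nfe2l3 (0.10) were not called. Nfe2 was called lower after median centring (-0.24) and without IL-10- replicate 4 (-0.26), while it differed by -0.06 without IL-10- replicate 3. Nrl, which has 1 probe set, was called higher in the fit over gene means at the same difference.

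Of the PAR factors that compete with NFIL3, Dbp was lower in IL-10+ cells, at 7.22 and 7.27 against 8.30 and 8.31 (-1.06, standard error 0.06; limma, adjusted p = 3.5e-05). That probe set carries the suffix s, of probes that can match several transcripts. The second Dbp probe set, without that suffix, was at 6.65 and 6.68 against 7.09 and 6.85, a smaller difference of -0.31, and both averaged gave -0.68. Tef was at 8.30 and 8.31 against 8.47 and 8.49, a difference of -0.18 that was not called (adjusted p = 0.0696 from limma). It was called after median centring (-0.25) and without the dim probe sets, and the mean over its probe sets differed by 0.12. Hlf differed by 0.01, with a sign that turned under both other normalizations. Of 16 clock genes measured, 2 were higher and 4 lower, with a median of -0.02 against -0.01 over all genes. Rora, a nuclear receptor that drives clock genes, fell by 0.57 (the mean over its probe sets rose by 0.20 instead), and the clock transcription factor Clock rose by 0.36, though not with its probe sets averaged (0.15). Nr1d2, a repressor of the clock, fell by 0.35 and Per1, which encodes a period protein, by 0.26. Nr1d2 was not called without IL-10+ replicate 1 or with its probe sets averaged (-0.12), and Per1 not without IL-10+ replicate 1 or 2 or IL-10- replicate 3. Leaving out either IL-10+ array reduced the clock genes called lower to 1 or 2, and the number higher was 1 in 4 of the refits.

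Regulators of NRF2 differed in both directions. Of 9 measured, 3 were higher and 3 lower, and only 1 was lower after quantile normalization, without IL-10+ replicate 1 or with the probe sets of a gene averaged. Keap1, named after its values were seen, was lower by its brightest probe set (-0.26) and higher with both averaged (0.43). Cul3, the scaffold of the ubiquitin ligase that KEAP1 serves, rose by 0.48, its RING partner Rbx1 by 0.43 (not called without IL-10+ replicate 2, at 0.26) and Gsk3b, a kinase that marks NRF2 for a second ligase, by 0.36. Syvn1, a ligase of the endoplasmic reticulum that also degrades NRF2, was at 9.12 and 8.95 in IL-10+ against 9.75 and 9.82 in IL-10- samples and fell by 0.75.

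Among 26 NRF2 target genes measured, Mafg included, 2 were called higher and 9 lower, with a median of -0.12 against -0.01 over all genes. Their mean level was high, at 9.11 and 9.12 in IL-10+ against 9.24 and 9.3 in IL-10- samples. The 5601 bright probe sets, averaging at least 9, had a median difference of -0.17, so -0.12 is not read as a fall of the list. The largest falls were in Pgd of the pentose phosphate pathway (-0.83), Sod1, which removes superoxide (-0.71, but -0.24 with its 5 probe sets averaged), Abcc4, a drug and nucleotide exporter (-0.63), and Gstp1, a glutathione transferase (-0.57). The classical antioxidant targets Nqo1 (0.05), Gclc (0.09), Gclm (-0.18) and Txnrd1 (-0.06), named after their values were seen, were not called. With probe sets averaged, Gclm was called lower (-0.26) and Txnrd1 higher (0.46), and 5 targets in place of 2 were higher. Hmox1, which breaks down heme and is held down by BACH1, was at 7.67 and 7.71 against 7.31 and 7.19, and rose by 0.43 (standard error 0.07; limma, adjusted p = 0.00255). Srxn1, named after its value was seen, was the other higher gene (0.37) and was not called without IL-10+ replicate 1. In the promoters of this list the core TGACNNNGC was held by 11 of 32, or 34.4%, against 12.4% of all. The core was not particular to this list, with 6 of 20 promoters of the clock genes and 2 of 5 of the c-MAF target genes. It was held by 2 of 16 promoters of the heme genes and 0 of 8 of the NRF2 regulators. These shares were not tested, and no enrichment is read from them.

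Genes of heme synthesis and breakdown showed the same mix, with Hmox1 as the 1 of 13 that was higher and 5 lower. Hmox2, the constitutive heme oxygenase, fell by 0.54, Urod by 0.42 and Alad by 0.34, the last 2 enzymes of heme synthesis. Urod was not called in probe sets without the marks x or s (-0.05), nor Alad without IL-10+ replicate 1 (-0.31). After median centring 8 were lower, and 2 or 3 when IL-10+ replicate 1 or 2 was left out.

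Genes that c-MAF acts on in T-cells differed by gene. Il10, on which the cells were sorted, was higher by 1.62, and Il4 was at 10.21 and 10.31 against 8.55 and 8.73, a rise of 1.62 (standard error 0.08; limma, adjusted p = 2.05e-05). Il21 (-0.03) and Il2 (-0.06) were at 6.62 or less on all 4 arrays and were not called, and the sign of Il2 turned without IL-10+ replicate 2. Icos, a costimulatory receptor linked to c-MAF expression, differed by 0.17 and was called higher only after quantile normalization (0.29).

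Genes described as held down by BACH2 in CD4+ T-cells moved both ways, 3 of 8 higher and 4 lower, Nfil3 among the latter. With probe sets averaged 4 were higher and 3 lower. Irf4, a factor of effector T-cells named after its values were seen, was lower by its brightest probe set (-0.32) and higher by the average (0.31). Il12rb1, a chain of the IL-12 receptor, rose by 0.62 and Ahr, the aryl hydrocarbon receptor, by 0.58. Prdm1, which encodes the effector factor Blimp-1 and was named after its value was seen, was at 11.22 and 11.21 against 10.71 and 10.96, a rise of 0.39 (standard error 0.09; limma, adjusted p = 0.0146). Prdm1 was not called without IL-10+ replicate 1 or without IL-10+ replicate 2. Gata3, the factor of type 2 helper cells, was at 8.98 and 8.98 in IL-10+ against 10.31 and 10.23 in IL-10- samples and fell by 1.29, and Gadd45g, a stress response gene, fell by 0.61.

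**Figure D4:**
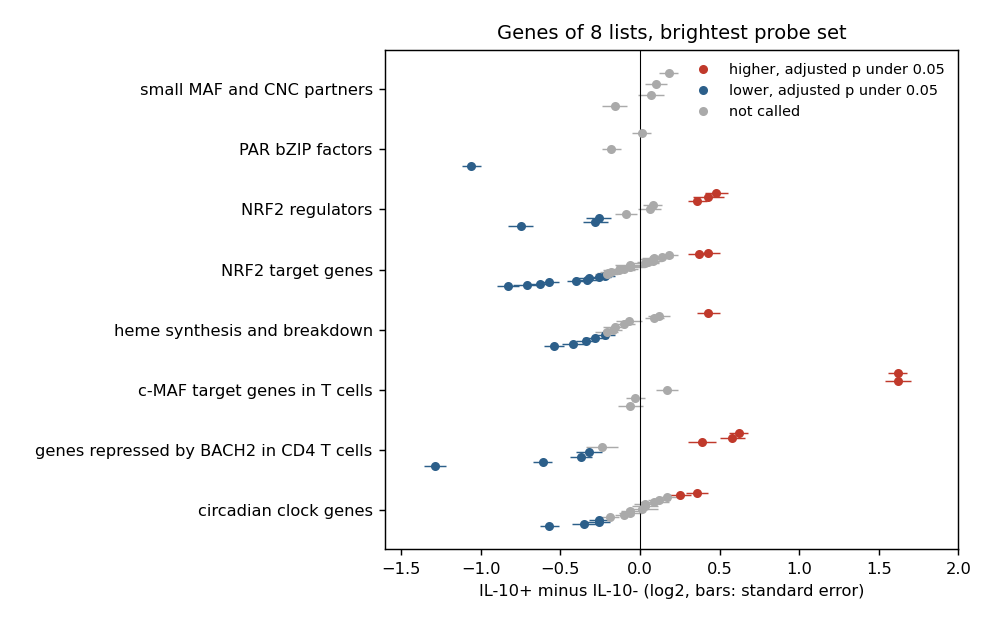
Difference of each listed gene by its brightest probe set (log2, horizontal axis, bars show the standard error from limma) in 8 lists of partners, regulators and targets of these bZIP factors, coloured by call. Il10 and Il4 lie at 1.62, Gata3 at -1.29 and Dbp at -1.06, and most other genes lie within 0.8 of zero.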

How the data were processed

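RNA of 2 IL-10+ and 2 IL-10- samples was hybridized to 1 Affymetrix mouse genome array each. Variance stabilization with Bioconductor packages was applied by the authors, whose deposited values, 1 per probe set, were read here as log2. Neither the log base of these values nor the probe summary is stated, and figure legends of the study give fold changes as natural logs. Both groups were then compared with limma 3.58.1 (R 4.3.3; linear model with a moderated variance, 5.44 prior and 2 residual degrees of freedom, two-sided). This covered 45037 probe sets, over which p was adjusted by Benjamini-Hochberg, and left aside 64 controls. The step was tested on simulated data. Python 3.11.15 and matplotlib 3.10.9 drew the figures.

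Gene names came from the platform annotation: 34945 of these probe sets carry 1 name, 932 carry more than 1 and stand for no gene here, and 9160 are absent from it. The 8 symbols matched RefSeq by gene identifier. Promoters are credited to RefSeq, GRCm38.p6; the array values have no coordinates. The brightest probe set stood for a gene. The text names every member probe set, all measured genes of the partner, PAR and c-MAF lists, up to 4 called genes of each other list by size, and the 3 genes closest by Euclidean distance to each of the 3 members with the largest difference. The members and the 8 pathway and 9 marker lists were chosen with earlier results of these data known. Alternatives were quantile normalization, median centring, a filter on dim probe sets, a trend or robust prior, leaving out each array, leaving out probe sets marked x or s, a stricter threshold, the mean over probe sets and natural logs. The table holds neither background signals nor scan dates, so neither was varied. Depth has no counterpart on arrays, and 4 arrays limit the precision.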

Additional observations from a re-analysis of the deposited data

Results flagged for a closer look

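The control probe sets set aside before the comparison carried a signal that differed between the groups. For 4 bacterial transcripts added to the RNA as labelling controls, in 1 series of their probe sets, the median difference between IL-10+ and IL-10- samples was 1.11 at the 5' end (from 0.62 to 1.96), 0.81 in the middle and 0.09 at the 3' end on the log2 scale, with IL-10+ samples higher. Its part in the opposite directions of the Maf probe sets was not tested.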

How the results depend on the processing

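Each of the 9 called probe sets of the bZIP genes was called in the same direction in all of the 10 refits that held it (1447849_s_at is left out where probe sets marked x or s are). Of the 9 not called, 5 were called in 1 or 2 refits. At the stricter threshold, 2 of these probe sets were higher and 2 lower, and over all probe sets 775 and 259. Median centring changed the split over all probe sets from 6133 higher and 7307 lower to 4668 and 10076. Without 1 array, the probe sets called ranged from 3994 to 7427 higher and from 4676 to 8192 lower. The listed genes called lower ranged from 14 to 27 without 1 array, and 19 were higher with probe sets averaged, against 12 by the brightest. Among the results reported by name, signs turned for 1444073_at of Maf (0.06, quantile normalization), Maff (-0.09 to 0.05 without 1 array), the brighter Mafg probe set (-0.21 to 0.02 without 1 array), Hlf (-0.06 after quantile normalization, -0.07 after median centring, and from -0.02 to 0.03 without 1 array), Il2 (-0.17 to 0.05 without 1 array), Nfe2l1 (-0.01 after median centring and -0.02 to 0.15 without 1 array), and, with probe sets averaged, Rora (0.20), Tef (0.12), Keap1 (0.43), Irf4 (0.31), Txnrd1 (0.46) and Gclc (-0.14). Of other listed genes, Abcc1 (-0.06 to 0.61) and Slc48a1 (-0.22 to 0.05) also turned when averaged. Natural logs would enlarge each difference, that of Maf 1437473_at to 3.34. The causes were not tested. No paired analysis was made, because the sources used here do not say which IL-10+ and IL-10- samples, if any, came from the same sort. With 2 arrays against 2, an exact permutation test of 1 gene cannot go below p = 0.333, and dim probe sets, such as those of Bach2 in IL-10+ cells, limit what a fold can show.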
